A study of Mus musculus with 45 samples.

Results

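The genes described here organize, copy and separate chromosomes. They are 41 listed mouse genes of 12 roles: the cohesin, condensin and SMC5/6 rings, the MCM helicase, the origin recognition complex, the replication clamp with its loader, the exonuclease Exo1, topoisomerase II, centromere proteins, the spindle checkpoint, the chromosomal passenger complex and the proliferation marker Mki67. Of these, 40 had a row among the 18135 genes of the deposited table, and Orc1 was not analysed here. The list was chosen by measured values: a chromosome gene list was lower in the striatum of heterozygous mice, where Exo1 fell most, so that the difference between heterozygous and wild-type striatum is given below as a description with no test. The samples are prefrontal cortex, hippocampus and striatum of male C57BL/6J mice aged 13 weeks, with 5 samples for each of 3 genotypes and 45 samples in all. The genotypes are wild type (WT), heterozygous for Shank3 (Shank3-HT) and homozygous for the mutation (Shank3-HM, knock-out in the sample labels and KI in the column names of the table). Shank3 encodes a scaffold of excitatory synapses, and the mutant allele lacks part of its exons. Pups of mixed genotype were reared together. Polyadenylated RNA of whole dissected tissue was sequenced, so that fewer cells of a type and less RNA per cell cannot be told apart.

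Cohesin holds sister chromatids together and shapes chromatin loops in cells of every type, neurons included, while condensin compacts chromosomes for mitosis. The origin recognition complex and the MCM helicase license and unwind DNA for replication, and topoisomerase II-alpha (Top2a), Mki67 and the mitotic kinetochore proteins are made mainly by cells that divide. In the adult mouse brain, progenitors divide beside the lateral ventricle, next to the striatum, and in the dentate gyrus of the hippocampus, and precursors of oligodendrocytes divide throughout the tissue.

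Promoters are shown for 6 of the genes, so that those that differed between regions below (Top2a, Mki67, Cenpf, Mcm6 and Mcm5) can be set beside Top2b, which did not pass. Each sequence holds the 250 bases before the RefSeq start of the gene (build GRCm38.p6), read 5′ to 3′ along the strand of the gene. Capitals mark matches, on either strand, to the CCAAT box (CCAAT), the cell cycle homology region CHR (TTTGAA) and 4 forms of the E2F element (TTTCCCGC, TTTCGCGC, TTTGCCGC and TTTGGCGC). Matches of different kinds do not overlap in these sequences, although matches of one kind may.
Top2a (chr11:99024190-99024439, minus strand): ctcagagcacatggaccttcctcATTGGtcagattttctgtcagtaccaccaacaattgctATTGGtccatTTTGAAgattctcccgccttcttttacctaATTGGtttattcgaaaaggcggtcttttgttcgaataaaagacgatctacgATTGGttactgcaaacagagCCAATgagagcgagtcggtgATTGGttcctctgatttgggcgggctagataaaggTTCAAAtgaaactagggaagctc
Mki67 (chr7:135716380-135716629, minus strand): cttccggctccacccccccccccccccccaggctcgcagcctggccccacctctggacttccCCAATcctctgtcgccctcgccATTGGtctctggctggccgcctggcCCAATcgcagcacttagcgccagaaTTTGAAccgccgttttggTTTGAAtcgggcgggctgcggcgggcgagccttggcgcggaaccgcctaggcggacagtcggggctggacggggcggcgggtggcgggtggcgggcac
Cenpf (chr1:189688087-189688336, minus strand): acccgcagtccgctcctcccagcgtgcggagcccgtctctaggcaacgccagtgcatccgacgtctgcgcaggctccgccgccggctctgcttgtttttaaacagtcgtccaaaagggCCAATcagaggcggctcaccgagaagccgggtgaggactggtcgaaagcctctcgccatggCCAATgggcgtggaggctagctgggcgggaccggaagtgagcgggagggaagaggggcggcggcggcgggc
Mcm6 (chr1:128359706-128359955, minus strand): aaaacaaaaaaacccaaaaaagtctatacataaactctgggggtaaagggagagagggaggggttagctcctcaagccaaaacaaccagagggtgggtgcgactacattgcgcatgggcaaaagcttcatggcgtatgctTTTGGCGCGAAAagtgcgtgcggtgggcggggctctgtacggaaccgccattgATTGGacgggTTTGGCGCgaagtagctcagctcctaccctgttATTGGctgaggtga
Mcm5 (chr8:75109259-75109508, plus strand): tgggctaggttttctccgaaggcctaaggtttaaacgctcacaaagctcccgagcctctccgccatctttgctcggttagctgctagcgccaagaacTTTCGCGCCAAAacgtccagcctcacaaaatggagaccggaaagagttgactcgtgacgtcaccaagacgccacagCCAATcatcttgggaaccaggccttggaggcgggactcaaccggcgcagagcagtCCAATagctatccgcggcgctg
Top2b (chr14:16364956-16365205, plus strand): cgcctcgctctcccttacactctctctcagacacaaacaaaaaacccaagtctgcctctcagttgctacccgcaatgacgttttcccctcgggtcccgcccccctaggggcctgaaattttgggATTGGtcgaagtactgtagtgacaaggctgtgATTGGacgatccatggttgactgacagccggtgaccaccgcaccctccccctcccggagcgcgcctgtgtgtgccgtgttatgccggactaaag

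Top2a held 2 CHR and 6 CCAAT matches, and Mki67 2 and 3. Mcm6 and Mcm5 held 3 and 2 E2F matches, and 2 CCAAT matches each, whereas Cenpf and Top2b held 2 CCAAT matches each and none of the other kinds, so that the matches did not separate Top2b from Cenpf. Smc6, which passed in no comparison of WT mice, held 1 CHR match. RefSeq promoters were matched to 33 of the genes by symbol, and Exo1, Aurkb, Incenp, Mcm4, Rad21, Smc4 and Stag2 had no entry. Among the 33, 22 (66.7%) held a CCAAT box, against 33.8% of all 32851 promoters. A CHR was found in 9 (27.3%) against 16.0%, and an E2F element in 8 (24.2%) against 1.86%. These matches describe letters in the window and not binding.

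The values are counts that the authors normalized with DESeq2, which sum to between 26118607 and 29568983 per sample. These sums are not sequencing depth, which is unknown. Shank3 itself had lower values with each mutant allele, with no overlap between genotypes in any region. It passed the limma test described below in all comparisons with WT (adjusted p of 0.0494 in the Shank3-HT striatum) other than that of the Shank3-HT cortex (-0.38 ± 0.07 on the log2 scale, adjusted p = 0.288). In the striatum it lay between 11309 and 12740 normalized counts in WT mice, 7959 and 9323 in Shank3-HT mice, and 4569 and 6242 in Shank3-HM mice. Markers matched the labelled regions, with a few libraries standing apart. The summed level of 12 markers of striatal spiny projection neurons was 228260 to 308041 in the 15 striatal samples, but also 65864 in cortical Shank3-HM sample 2, where the other 14 cortical samples lay between 9567 and 11995. That sample also had the lowest cortical sum of 10 markers of cortical excitatory neurons (40298, against 62530 to 74562). The summed level of 10 choroid plexus markers was 108241 in striatal Shank3-HT sample 5, against 4816 to 8660 in the other striatal samples, and spread from 5955 to 185032 over the hippocampal samples.

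How far the genes were measurable differed by role. A mean of at least 10 normalized counts, the limit for a test, was reached by 37 of the 40 genes in cortical, 36 in hippocampal and 40 in striatal samples, and by 38 over all 45 samples. Just inside that last limit were Ncapg, a condensin subunit, with a mean of 12.9, and Exo1 with 14.7. Just outside were the checkpoint kinase Bub1 (8.997) and Aurkb, the kinase of the chromosomal passenger complex (7.08). Ncapg and Exo1 passed only through the striatum, since their means over the 30 other samples were 8.11 and 9.65, so that their differences between striatum and the other regions are favoured by the limit and are given below with no test. Ncapg had a mean of 22.4 over the 15 striatal samples, against 6.26 in the cortex and 9.96 in the hippocampus. Bub1 and Aurkb were likewise highest in the striatum, at 16.7 and 11.2 over the 15 samples, against 4.26 and 4.46 in the cortex and 6.05 and 5.62 in the hippocampus.

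The spread between samples of a group differed from gene to gene, also within roles. The SD between the 5 samples of a group, as a percentage of the group mean and taken as the median over the 9 groups, was 4.80% to 7.23% for the 5 cohesin genes and 5.81% to 11.4% for the 5 genes of the origin recognition complex. For the 6 MCM genes it was 7.82% to 14.01%. Over all 40 genes its median was 9.72%, near the 10.1% of all genes with a mean of at least 10. The widest spread was that of Cenpf (82.9%) and Cenpe (58.8%), kinetochore proteins of mitosis, of Bub1 (75.1%), Bub1b (50.8%) and Aurkb (59.8%), and of Exo1 (65.9%). Cenpb (6.21%), which binds centromeric DNA, and Bub3 (3.80%), which also has roles outside mitosis, were narrow members of the same roles. The 6 genes of widest spread had means over the 45 samples of 7.08 (Aurkb), 8.997 (Bub1), 14.7 (Exo1), 41.7 (Cenpf), 59.3 (Cenpe) and 66.8 (Bub1b), against 3621 for Cenpb and 1360 for Bub3. Mcm3, with a mean of 66.7, had a spread of 13.6%. The part of level in the spread was not tested.

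**Figure D1:**
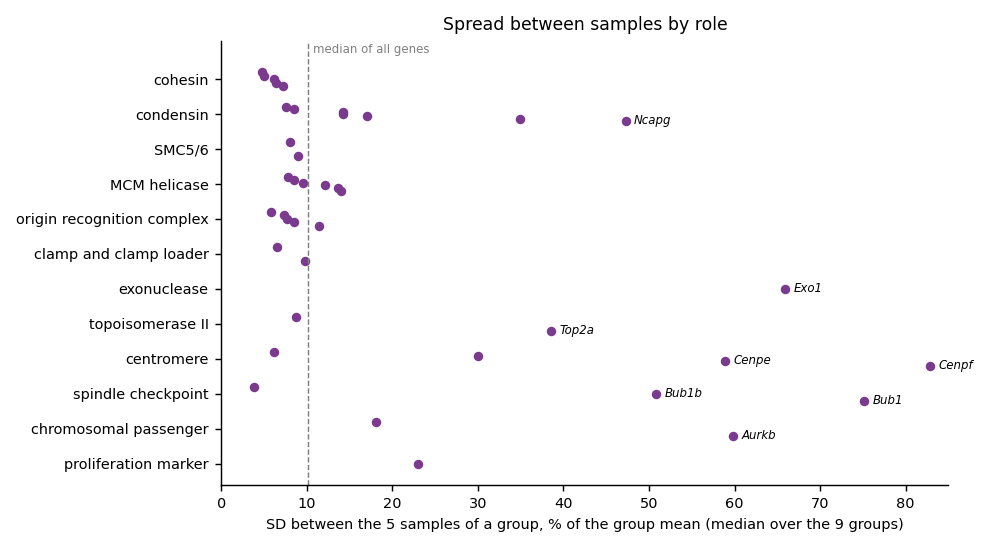
SD between the 5 samples of a group as a percentage of the group mean (x axis, median over the 9 groups), with 1 point per gene for 40 genes arranged by role (y axis). The dashed line is the median of all genes (10.1%); cohesin genes sit left of it, and Cenpf, Bub1, Exo1, Aurkb, Cenpe, Bub1b and Ncapg lie beyond 45%.

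Exo1 (chromosome 1, 175880581 to 175913489, GRCm38, plus strand) encodes an exonuclease that degrades the nicked strand in mismatch repair and trims DNA ends for recombination. In the striatum its normalized counts were 25.2, 45.4, 18.3, 86.1 and 21.6 in WT mice and 6.14, 13.8, 6.78, 7.13 and 5.95 in Shank3-HT mice. Every Shank3-HT sample was below every WT sample, and WT sample 4 stood well above the other WT samples. The means were 39.3 ± 28.2 and 7.95 ± 3.28 (SD, n = 5 each), a difference of -1.99 ± 0.37 (SE) on the log2(value + 1) scale, which was -1.65 without WT sample 4 and -1.92 without Shank3-HT sample 5. In Shank3-HM striatum Exo1 was 30.8, 31.4, 27.6, 30.6 and 15.5, within the range of WT apart from the lowest sample, and its difference from the same WT mice was -0.32 ± 0.37 (adjusted p = 0.918). In the Shank3-HT cortex Exo1 was 3.70, 3.56, 15.7, 31.6 and 6.12, against 5.57, 8.96, 6.47, 31.4 and 10.6 in WT, and the groups overlapped over nearly their whole range (-0.23 ± 0.59, adjusted p = 1.0). In the hippocampus Exo1 was below the limit for a test, with 3.85 to 14.3 in WT, 2.23 to 7.44 in Shank3-HT and 1.22 to 8.19 in Shank3-HM mice.

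Topoisomerase II-alpha relieves DNA tangles before chromosomes separate, and its gene Top2a (chromosome 11, 98992943 to 99024189, minus strand) showed the next largest fall in the Shank3-HT striatum. It was 232, 134, 163, 223 and 239 in WT mice and 124, 64.4, 96.9, 133 and 70.9 in Shank3-HT mice, so that the highest Shank3-HT sample lay just under the lowest WT sample. The means of 198 ± 47.0 and 97.8 ± 30.6 (SD, n = 5 each) differed by -1.03 ± 0.27 (SE, log2), or -0.93 without Shank3-HT sample 5. Cenpf, a protein of the outer kinetochore (chromosome 1, 189640606 to 189688086, minus strand), was 68.2, 43.7, 71.5, 57.2 and 62.9 in WT and 36.9, 27.2, 38.1, 49.6 and 28.9 in Shank3-HT mice. Only Shank3-HT sample 4 reached into the WT range, and the difference was -0.74 ± 0.25. Cenpa, the histone H3 variant of centromeres, differed by -0.73 ± 0.28 and Mki67 by -0.40 ± 0.21.

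The 3 largest rises in that comparison were small. Incenp, a scaffold of the chromosomal passenger complex, was 163, 264, 209, 234 and 327 in WT and 360, 209, 282, 230 and 278 in Shank3-HT striatum (0.20 ± 0.16), a difference of 0.067 without WT sample 1 and 0.088 without Shank3-HT sample 1. Cenpe, the kinesin of kinetochores, was 45.7, 32.4, 41.5, 42.2 and 38.3 against 51.9, 22.0, 96.7, 43.8 and 32.4 (0.13 ± 0.34). Shank3-HT sample 3 decided this value, which was -0.15 without it. Ncapg2, a condensin subunit, was 178, 142, 178, 153 and 169 against 188, 191, 195, 146 and 154 (0.09 ± 0.11), with 0.037 without WT sample 2 and 0.15 without Shank3-HT sample 4. The groups overlapped for all 3.

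Of the 40 genes, 29 had a log2 difference below 0 in the Shank3-HT striatum, where 52.0% of the 16482 genes did. Exo1 and Top2a were the 2 whose groups did not overlap, with the Shank3-HT samples lower, as in 0.419% of all genes. These counts come from the comparison that chose the list, and nothing is read from them. Their median difference was -0.076, against -0.0058 over all genes. Without the Shank3-HT sample rich in choroid plexus markers, 28 were below 0. By role, the log2 differences ran from -0.29 to 0.01 for the MCM genes, from -0.09 to 0.03 for cohesin, from -0.14 to 0.08 for the origin recognition complex and from -0.32 to 0.09 for condensin. The marker lists gave these differences in the same comparison, with no test: 8 of the 10 tested markers of newborn neurons were below 0 (median -0.42), 9 of 9 of oligodendrocyte precursors above 0 (median 0.17), and 10 of 10 of choroid plexus above 0 (median 1.16). The last median was carried by Shank3-HT sample 5: without it 7 choroid plexus markers reached the limit, with a median of -0.019, and the summed levels of the other 4 Shank3-HT samples were 5024 to 8660, against 4816 to 6776 in WT mice. Without that sample 7 of 9 markers of oligodendrocyte precursors were above 0 (median 0.16) and 8 of 10 of newborn neurons below 0 (median -0.41). Of the other lists, 12 of 12 markers of spiny projection neurons were below 0 (median -0.068), and 8 of 12 without that sample (-0.026). Below 0 were also 7 of 10 markers of cortical excitatory neurons (median -0.58), with 7 of 10 without the sample (-0.38), and 5 of 8 of neural stem cells and ependyma (-0.24), with 4 of 8 without it (-0.17). Above 0 were 6 of 8 markers of hippocampal neurons (0.36), 6 of 10 of microglia (0.049) and 6 of 10 of endothelial cells (0.026). Without the sample these were 6 of 8 (0.31), 7 of 10 (0.019) and 6 of 10 (0.014). Summed levels of these lists overlapped between the groups, at 8264 to 10142 in WT and 7433 to 8703 in Shank3-HT mice for the newborn neuron list, and at 8416 to 9789 and 9160 to 11248 for oligodendrocyte precursors. For cortical excitatory neurons the sum was 14902 in WT sample 5 and 6110 to 7415 in the other WT samples, against 5603 to 12922 in Shank3-HT mice. The medians were 7155 in WT and 7898 in Shank3-HT mice. WT sample 5 was not left out for these lists. The part of these cells in the differences was not tested.

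**Figure D2:**
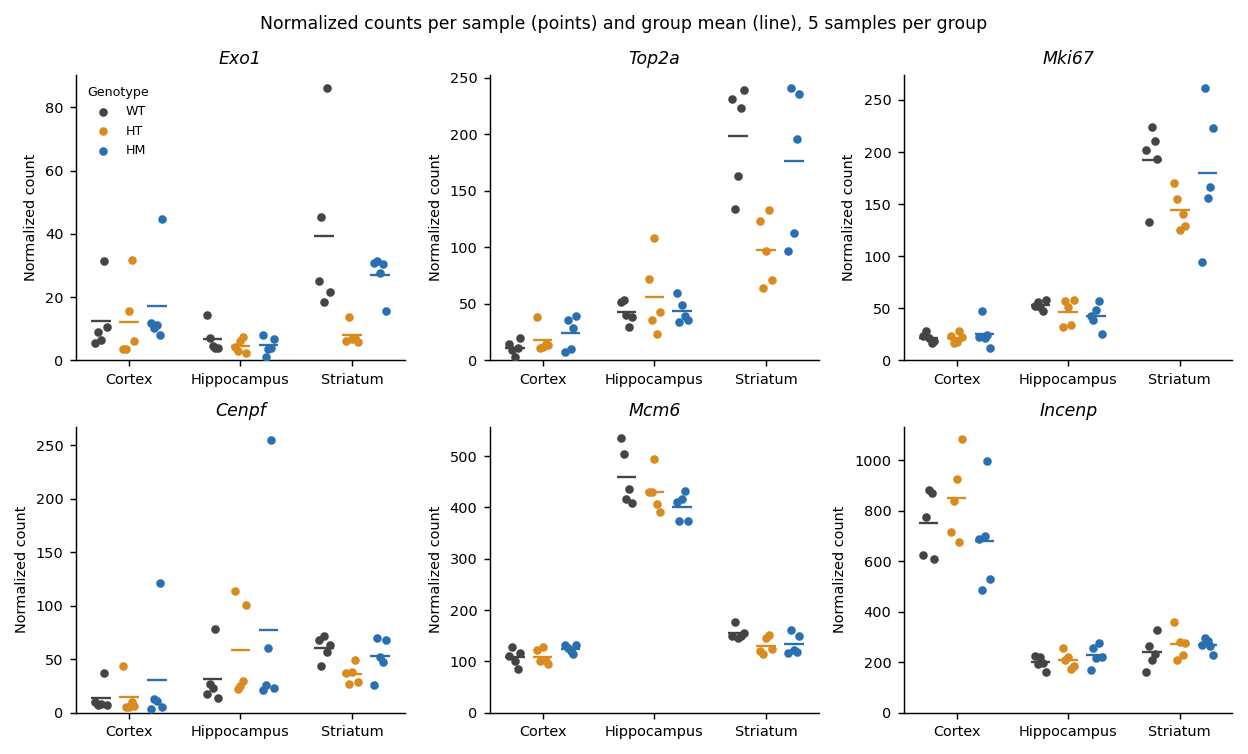
Normalized counts (y axes) of 6 genes in the 45 samples, by region (x axes) and genotype (colours), with a point for each sample and a line at the group mean. Exo1 and Top2a lie lower in the 5 Shank3-HT than in the 5 WT striatal samples, Mki67 and Top2a are highest in the striatum, Mcm6 in the hippocampus and Incenp in the cortex.

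Whether the same genes differed in other tissue or at the other gene dose was tested in the 5 comparisons with WT that did not choose the list, of which the Shank3-HM striatum shares the WT mice with the one that did. None of the genes passed the threshold of an adjusted p of 0.05 in any of them. In the Shank3-HT cortex 0 of 37 passed by limma, as did 0% of all genes (Shank3 did not pass there either), and 1 had an unadjusted p under 0.05 (2.68% of all genes did). In the Shank3-HM cortex 0 of 37 passed (0.0121% of all genes) and 2 had such an unadjusted p (5.49%). The hippocampus gave 0 of 36 in Shank3-HT (0.00603%) and 0 of 36 in Shank3-HM mice (0.00603%), with 1 gene in each under the unadjusted limit (5.26% and 4.73%). In the Shank3-HM striatum 0 of 40 passed (0.182%), and 0 were under the unadjusted limit (7.43%). Leaving out cortical Shank3-HM sample 2 also gave 0 in the Shank3-HM cortex, with 2 under the unadjusted limit. The smallest adjusted p values of any of the genes were 1.0, 0.878, 0.926, 0.920 and 0.673 in these comparisons, in that order.

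The 3 genes with the smallest p values of each comparison are given next. Mcm7, an MCM helicase subunit, was 255, 182, 195, 250 and 194 in WT cortex, 226, 264, 309, 286 and 310 in Shank3-HT cortex and 263, 266, 273, 232 and 288 in Shank3-HM cortex. Its ranges overlapped, and the differences of 0.38 ± 0.11 (adjusted p = 1.0) and 0.31 ± 0.11 (adjusted p = 0.878, and 0.30 without Shank3-HM sample 2) were relative to the same WT mice. In the Shank3-HT cortex Cenpa was 50.7, 60.8, 69.2, 67.9 and 67.6 against 49.7, 31.4, 54.1, 53.5 and 61.8 in WT (0.35 ± 0.18, and 0.20 without WT sample 2). Mcm3 was 39.7, 38.3, 43.1, 39.8 and 33.3 against 43.2, 58.0, 46.4, 80.8 and 41.4 (-0.42 ± 0.25, and -0.27 without WT sample 4, the highest of all). In the Shank3-HM cortex Orc5, a subunit of the origin recognition complex, was 538, 515, 470, 492 and 510 against 460, 459, 501, 420 and 423 (0.16 ± 0.07). Smc4, an ATPase of condensin, was 174, 158, 125, 161 and 112 against 150, 196, 193, 187 and 183 (-0.33 ± 0.16). Without Shank3-HM sample 2 these 2 differences were 0.15 and -0.36. Each of these pairs of groups overlapped.

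In the hippocampus the 3 genes with the smallest p values in Shank3-HT mice were Rad21, Smc4 and Cenpa. Rad21, the cleavable subunit of cohesin, was 2918, 3128, 3440, 3172 and 2992 in Shank3-HT against 2668, 3012, 2947, 2818 and 2954 in WT mice (0.12 ± 0.05, adjusted p = 0.926). Smc4 was 241, 224, 234, 226 and 223 against 233, 298, 262, 263 and 271 (-0.20 ± 0.10), and Cenpa 45.1, 41.5, 46.0, 36.1 and 43.5 against 90.3, 57.7, 45.6, 47.0 and 59.3 (-0.45 ± 0.25, and -0.29 without WT sample 1). All 3 overlapped with WT, Cenpa and Smc4 in a narrow range. In Shank3-HM mice Mcm6 was 410, 375, 416, 432 and 374 against 535, 505, 417, 435 and 409 (-0.19 ± 0.09, adjusted p = 0.920). Mcm3 was 64.7, 51.1, 53.9, 44.5 and 55.9 against 77.4, 65.5, 62.1, 61.6 and 56.1 (-0.25 ± 0.13). Cenpb was 3372, 3303, 3300, 3774 and 3392 against 3931, 3489, 3616, 3772 and 3466 (-0.09 ± 0.05). Mcm3 and Cenpb overlapped with WT through a single Shank3-HM sample each, and Mcm6 more widely.

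In the Shank3-HM striatum the 2 smallest p values belonged to MCM subunits. Mcm5 was 150, 152, 207, 216 and 169 against 211, 184, 210, 208 and 229 in WT mice (-0.23 ± 0.11, adjusted p = 0.673), and Mcm6 was 116, 162, 122, 118 and 150 against 150, 177, 146, 150 and 155 (-0.23 ± 0.12, adjusted p = 0.706). Ncaph, the kleisin of condensin, was 23.5, 47.1, 51.1, 102 and 49.2 against 33.3, 23.0, 44.6, 34.99 and 32.8 (0.56 ± 0.31, adjusted p = 0.746, and 0.30 without Shank3-HM sample 4). The groups overlapped for all 3. Top2a was 96.7, 241, 113, 196 and 235 in Shank3-HM striatum, spanning the range of WT (-0.23 ± 0.27, adjusted p = 0.919), and Cenpf and Mki67 differed by -0.26 ± 0.25 and -0.15 ± 0.21. When the effect of the homozygous mutation was compared between regions, 0 of 38 genes passed for hippocampus minus cortex (0% of all genes), striatum minus cortex (0.0539%) and striatum minus hippocampus (0.0718%), and 2, 4 and 1 had an unadjusted p under 0.05 (4.45%, 5.42% and 5.37% of all genes did). Without cortical Shank3-HM sample 2 the comparisons with cortex again gave 0 past the threshold and 2 and 4 under the unadjusted limit. The effect of the heterozygous mutation did not pass between hippocampus and cortex for any of the 38 (0% of all genes), with 3 under the unadjusted limit (3.35%).

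**Figure D3:**
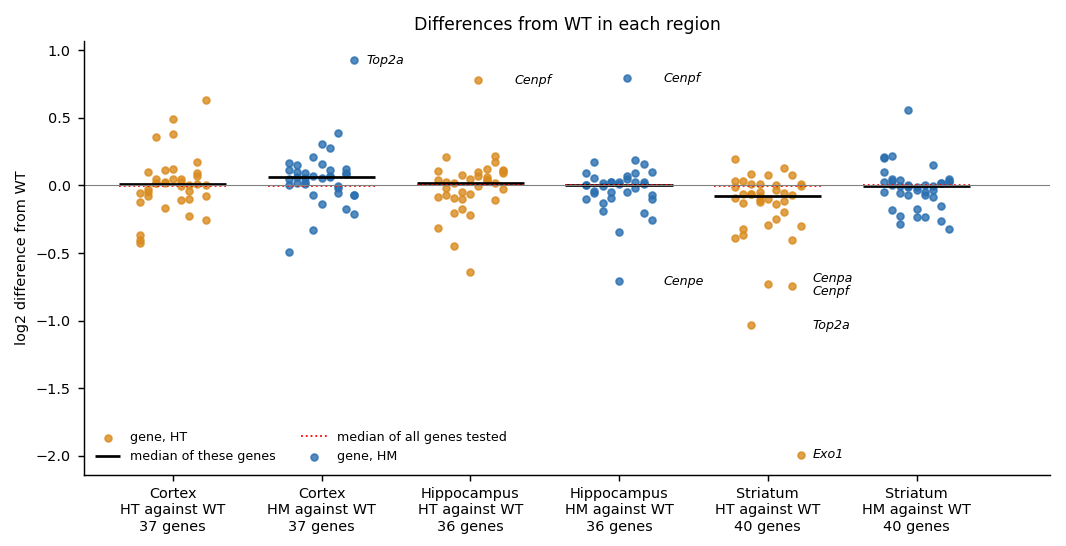
Log2 differences from WT (y axis) of the genes tested in each region, with 1 point per gene, orange for Shank3-HT and blue for Shank3-HM mice (x axis). Black lines mark the median of these genes and dotted red lines that of all genes tested; Exo1 (-1.99) and Top2a (-1.03) stand lowest in the Shank3-HT striatum, the comparison that chose the list, and none of these genes passed the test in the other 5.

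More of the genes passed between regions than between genotypes, which was so for all genes as well, as the shares beside the counts show. The comparisons that follow were made among WT mice and repeated among Shank3-HM mice, in one limma fit of the 9 groups for the 38 genes that reached the limit. The striatal WT samples also took part in the choice of the list, whereas no Shank3-HM sample did. In WT mice 14 of the 38 genes were higher in the hippocampus than in the cortex (23.3% of all 16708 genes were) and 4 were lower (23.3%). In the striatum 18 were higher than in the cortex (30.0%) and 2 lower (29.3%), and 12 were higher than in the hippocampus (27.8%) and 5 lower (28.3%). Among Shank3-HM mice the counts were 12 higher (21.0%) and 6 lower (21.2%) for hippocampus against cortex, 17 (28.8%) and 3 (28.6%) for striatum against cortex, and 14 (26.7%) and 2 (28.2%) for striatum against hippocampus. Exo1 is among the 18 and the 12 of WT mice but is not read as a call, since those striatal samples chose it, and without it the counts are 17 and 11. Without Exo1 and Ncapg, which reached the limit through the striatum, they are 16 and 10 in WT and 16 and 12 in Shank3-HM mice, and the 6 lower genes of Shank3-HM hippocampus against cortex are 5. The 3 regions of a genotype may come from the same mice, which the labels do not tie to samples and the fit does not take into account. With genotype and number as a block, 20, 20 and 18 genes passed in either direction in WT mice, against 18, 20 and 17. The median differences of the genes in WT mice were 0.15, 0.19 and 0.11 on the log2 scale, against 0.0056, 0.011 and -0.0019 over all genes. Leaving out Exo1 and Ncapg, 10 of 14, 15 of 16 and 8 of 10 genes that were higher in WT mice were called in the same direction in Shank3-HM mice, as were 76.1%, 83.9% and 81.9% of all genes so called in WT. Of those that were lower, 3 of 4, 1 of 2 and 2 of 5 were (77.9%, 86.6% and 85.1% of all genes). As shares of the Shank3-HM calls these are 10 of 12, 15 of 16 and 8 of 12 (84.7%, 87.5% and 85.3%), and 3 of 5, 1 of 3 and 2 of 2 (85.4%, 88.7% and 85.6%). Without cortical Shank3-HM sample 2, and with Exo1 and Ncapg counted, the Shank3-HM counts against cortex were 12 higher and 5 lower for the hippocampus, and 14 and 3 for the striatum. Exo1 is among the 5 and Ncapg among the 14. Lost without that sample were the Shank3-HM calls of Smc5 and Pcna for hippocampus against cortex (adjusted p = 0.0934 and 0.0556) and of Pcna, Mcm3 and Bub3 for striatum against cortex (adjusted p = 0.0726, 0.0658 and 0.158). Gained was a call of Stag2 as higher in hippocampus than in cortex (adjusted p = 0.0381). When each of the 10 samples of a comparison was left out in turn, 11 of 18, 15 of 18 and 11 of 15 calls of WT mice, Exo1 and Ncapg aside, passed in every fit, and 10 of 17, 12 of 19 and 13 of 14 of those of Shank3-HM mice. A single sample decided the WT calls of Mcm5 (hippocampal sample 5), Stag2 (hippocampal sample 4) and Pcna (hippocampal sample 1) for hippocampus against cortex and of Bub3 (striatal sample 1) for striatum against cortex. Calls of WT mice lost in several fits were those of Orc5 (5 of 10), Smc1a (4), Ncapg2 (3) and Mcm7 (2) for hippocampus against cortex, Ncaph (7) and Ncapd2 (3) for striatum against cortex, and Ncapd3 (8), Rad21 (6), Orc6 (5) and Pcna (3) for striatum against hippocampus.

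Mki67 and Top2a had the 2 largest differences of striatum from cortex in both genotypes, and from hippocampus when Exo1 is set aside. Mki67 (chromosome 7, 135689784 to 135716361, minus strand), which coats chromosomes in mitosis, was 202, 132, 224, 210 and 193 in WT striatum, 52.0, 56.0, 51.3, 47.8 and 57.6 in hippocampus and 23.5, 28.4, 21.9, 16.5 and 18.6 in cortex. The 3 regions did not overlap. Its differences were 3.09 ± 0.25 (SE, log2) for striatum against cortex (adjusted p = 2.01e-14), 1.82 ± 0.25 for striatum against hippocampus (adjusted p = 2.65e-08) and 1.26 ± 0.25 for hippocampus against cortex (adjusted p = 3.71e-05). Among Shank3-HM mice they were 2.82, 2.02 and 0.81 (adjusted p = 3.20e-13, 2.51e-09 and 0.00708). In the Shank3-HM cortex Mki67 was highest in sample 2, at 47.2 against 12.1 to 24.4 in the others, and the Shank3-HM differences against cortex were 3.07 and 1.05 without it. The Shank3-HM call for hippocampus against cortex was lost without cortical sample 5 (adjusted p = 0.0511).

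Top2a followed the same order, with 232, 134, 163, 223 and 239 in WT striatum, 52.1, 53.1, 40.1, 29.8 and 38.7 in hippocampus and 14.3, 9.28, 3.15, 11.04 and 19.5 in cortex. No sample of one region reached the range of another. The differences were 4.14 ± 0.41 for striatum against cortex (adjusted p = 7.27e-12), 2.18 ± 0.41 for striatum against hippocampus (adjusted p = 1.27e-05) and 1.96 ± 0.41 for hippocampus against cortex (adjusted p = 8.72e-05). The Shank3-HM mice gave 2.99, 1.93 and 1.06 (adjusted p = 2.78e-08, 8.54e-05 and 0.0311). The values against Shank3-HM cortex were 3.20 and 1.27 without cortical sample 2, and the call for hippocampus against cortex was lost in 4 of the 10 fits without 1 sample. Its paralogue Top2b, which is expressed in cells that no longer divide, had means of 3121 in striatum, 2704 in hippocampus and 3012 in cortex and passed in none of the comparisons.

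Cenpf was also higher in WT striatum than in cortex, at 43.7 to 71.5 against 9.73, 7.29, 7.88, 36.7 and 7.19, where cortical sample 4 stood alone (2.35 ± 0.65, adjusted p = 0.00183; 1.81 in Shank3-HM mice, adjusted p = 0.0155, lost without cortical Shank3-HM sample 1 or 5). Ncapg (chromosome 5, 45669919 to 45700546, plus strand) was 18.05, 18.1, 21.5, 24.2 and 32.8 in striatum, 5.07, 11.4, 6.57, 6.51 and 9.29 in hippocampus and 1.76, 10.9, 5.47, 3.06 and 6.54 in cortex. The striatal samples lay above all others, by 2.01 ± 0.44 against cortex and 1.46 ± 0.44 against hippocampus, with 1.60 and 1.05 in Shank3-HM mice, given with no test because the limit was reached through the striatum. Exo1 was 15.5 to 31.4 in Shank3-HM striatum, above the 1.22 to 8.19 of Shank3-HM hippocampus (2.41 ± 0.50, likewise with no test). Against Shank3-HM cortex, where sample 5 reached 44.6 and the others 7.92 to 11.7, its difference was 0.89 ± 0.50. For WT mice the difference of Exo1 between striatum and hippocampus was 2.30, given with no test because the same striatal samples chose the gene. The difference of Exo1 between hippocampus and cortex of Shank3-HM mice was -1.52 ± 0.50.

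Markers of the cell types that divide or have recently divided in adult brain differed between regions too. In WT mice the summed level of 9 markers of oligodendrocyte precursors was 6556 to 7530 in cortex, 8973 to 9416 in hippocampus and 8416 to 9789 in striatum. That of 8 markers of neural stem cells and ependyma was 1410 to 1732, 2777 to 3338 and 1488 to 2508. The sum for 12 markers of newborn neurons and neuroblasts was 10047 to 11127, 8028 to 9400 and 8264 to 10142. For 10 microglial markers it was 10728 to 13102, 10452 to 11979 and 13425 to 15572, with every striatal sample above all others, and for 10 endothelial markers 9074 to 11332, 7342 to 8849 and 9038 to 10306. The sum for newborn neurons rests on Tubb3 and Dcx, which all 3 regions hold at high levels. No marker of these lists was at 0 in all 5 WT samples of a region, and the ependymal gene Tmem212 was nearest to it in cortex, with a mean of 0.203 against 60.8 in hippocampus and 48.2 in striatum. The part of these cells in the regional differences was not tested.

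The MCM helicase split by subunit. Mcm6 (chromosome 1, 128331590 to 128359664, minus strand) was 535, 505, 417, 435 and 409 in WT hippocampus, 150, 177, 146, 150 and 155 in striatum and 112, 129, 101, 85.3 and 117 in cortex. The hippocampal samples stood far above the rest, by 2.08 ± 0.11 against cortex (adjusted p = 3.49e-20), and the striatum was lower than the hippocampus by -1.55 ± 0.11 (adjusted p = 1.49e-16). The values were 1.67 and -1.59 in Shank3-HM mice (adjusted p = 5.59e-17 and 6.76e-17). Mcm5, another subunit of the same ring, had another order, with 211, 184, 210, 208 and 229 in striatum, 113, 97.5, 121, 98.7 and 103 in cortex and 90.1, 99.7, 83.5, 85.9 and 58.8 in hippocampus. Striatum exceeded hippocampus by 1.33 ± 0.11 (adjusted p = 1.95e-13) and cortex by 0.96 ± 0.11 (adjusted p = 1.23e-09), and hippocampus fell below cortex by -0.37 ± 0.11 (adjusted p = 0.00745), a call lost without hippocampal WT sample 5 (-0.25, adjusted p = 0.0624). In Shank3-HM mice these differences were 0.92, 0.63 and -0.29 (adjusted p = 3.95e-09, 7.87e-06 and 0.0396), the last lost in 6 of the 10 fits without 1 sample. Mcm7 and Mcm4 were higher in striatum than in cortex by 1.03 ± 0.11 and 0.89 ± 0.08 and than in hippocampus by 0.70 ± 0.11 and 0.48 ± 0.08, and all 4 differences passed in both genotypes. Mcm3 passed for striatum against cortex (0.65 ± 0.21), and Mcm2 in no comparison of WT mice. Mcm6 passed there in WT (0.53 ± 0.11) and not in Shank3-HM mice (0.08, adjusted p = 0.533). For no gene did the effect of the homozygous mutation pass between these regions, as given above.

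Incenp (chromosome 19, 9872296 to 9899551, minus strand) ran against most of the group. It was 624, 777, 883, 872 and 608 in WT cortex, 226, 193, 222, 196 and 160 in hippocampus and 163, 264, 209, 234 and 327 in striatum. All cortical samples lay above all others, and the differences from cortex were -1.90 ± 0.17 in hippocampus (adjusted p = 1.42e-12) and -1.67 ± 0.17 in striatum (adjusted p = 2.66e-11). Among Shank3-HM mice they were -1.54 and -1.29 (adjusted p = 5.02e-10 and 1.61e-08). Hippocampus and striatum did not pass against each other (0.24 ± 0.17). Its partner Aurkb was below the limit over the 45 samples, so the partners could not be compared by test.

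Within the centromere group, Cenpe (chromosome 3, 135212537 to 135273611, plus strand) was 152, 71.2, 122, 83.9 and 190 in WT hippocampus, 45.7, 32.4, 41.5, 42.2 and 38.3 in striatum and 12.2, 73.5, 14.5, 59.6 and 10.4 in cortex. The hippocampus was highest, although cortical sample 2 reached into its range and sample 4 came near it. It exceeded cortex by 2.20 ± 0.50 (adjusted p = 2.92e-04) and striatum lay below hippocampus by -1.52 ± 0.50 (adjusted p = 0.00879). Only the first passed in Shank3-HM mice (1.63, adjusted p = 0.00709, against -0.66, adjusted p = 0.269). Cenpa and Cenpb passed in none of the 3 comparisons of WT mice. In the checkpoint group Bub3 passed for striatum against cortex with 0.12 ± 0.04 (adjusted p = 0.0148), and Bub1b in no comparison of WT mice, although it was lower in striatum than in cortex of Shank3-HM mice (-1.08 ± 0.46, adjusted p = 0.0401, lost in 7 of the 10 fits without 1 sample).

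Condensin subunits did not move together. Ncapd2 was 668, 1118, 954, 727 and 717 in WT cortex, 582, 525, 634, 532 and 456 in hippocampus and 769, 615, 636, 681 and 525 in striatum. Its hippocampal samples lay below the cortical ones (-0.60 ± 0.14, adjusted p = 3.91e-04), whereas striatum overlapped cortex (-0.36 ± 0.14, adjusted p = 0.0242) and this call was lost without cortical WT sample 2 (-0.25, adjusted p = 0.128), cortical WT sample 3 or striatal WT sample 5. Ncapg2 was 114, 139, 128, 156 and 132 in hippocampus and 195, 168, 126, 212 and 208 in cortex, with overlap (-0.43 ± 0.15, adjusted p = 0.0187), and did not pass without hippocampal WT sample 1 or without cortical WT sample 4 or 5. Smc2, which pairs with Smc4 in the condensin ring, was 324, 451, 425, 346 and 397 in hippocampus and 319, 296, 328, 286 and 283 in striatum, ranges that overlapped only between 324 and 328 (-0.35 ± 0.08, adjusted p = 3.25e-04; -0.48 in Shank3-HM mice, adjusted p = 3.64e-06). Smc2 and Smc4 were higher in hippocampus than in cortex, by 0.49 ± 0.08 and 0.55 ± 0.14. Ncaph was higher in striatum than in cortex by 0.77 ± 0.34 (adjusted p = 0.0492), a call lost in 7 of the 10 fits without 1 sample. In Shank3-HM mice the difference was 1.82 (adjusted p = 1.36e-05), and 1.19 against hippocampus (adjusted p = 0.00306).

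The differences given here for cohesin and origin recognition genes reached at most 0.70 on the log2 scale. Striatum exceeded cortex by 0.22 ± 0.06 for Smc1a, 0.36 ± 0.06 for Smc3, 0.41 ± 0.08 for Stag1 and 0.52 ± 0.08 for Stag2, all past the threshold in both genotypes, although the Shank3-HM call of Smc1a was lost without striatal or cortical sample 5, and Rad21 did not pass (0.05 ± 0.05). Rad21 and the condensin subunit Ncapd3 were higher in striatum than in hippocampus, by 0.13 ± 0.05 and 0.19 ± 0.08, in WT mice (adjusted p = 0.0397 and 0.0383). These calls were lost in 6 and 8 of the 10 fits without 1 sample, and neither gene was called in Shank3-HM mice. Orc3 was the only subunit of the origin recognition complex to pass for striatum against cortex in WT mice, with 0.70 ± 0.08 (adjusted p = 2.45e-10), and it also passed for hippocampus against cortex (0.41 ± 0.08) and striatum against hippocampus (0.29 ± 0.08). Orc6 was 399, 358, 394, 338 and 333 in WT striatum and 476, 401, 436, 373 and 401 in hippocampus, overlapping ranges (-0.19 ± 0.08, adjusted p = 0.0454), and this call was lost when any one of 5 samples was left out and did not pass in Shank3-HM mice (adjusted p = 0.0679). Orc5 passed for hippocampus against cortex alone (0.16 ± 0.06, adjusted p = 0.0324), and Orc2 and Orc4 in none of the comparisons of WT mice. Pcna, the sliding clamp of replication, was higher in hippocampus than in cortex by 0.18 ± 0.06 and lower in striatum than in hippocampus by -0.17 ± 0.06. Rfc1 of the clamp loader and the paired Smc5 and Smc6 passed in none of the comparisons of WT mice.

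**Figure D4:**
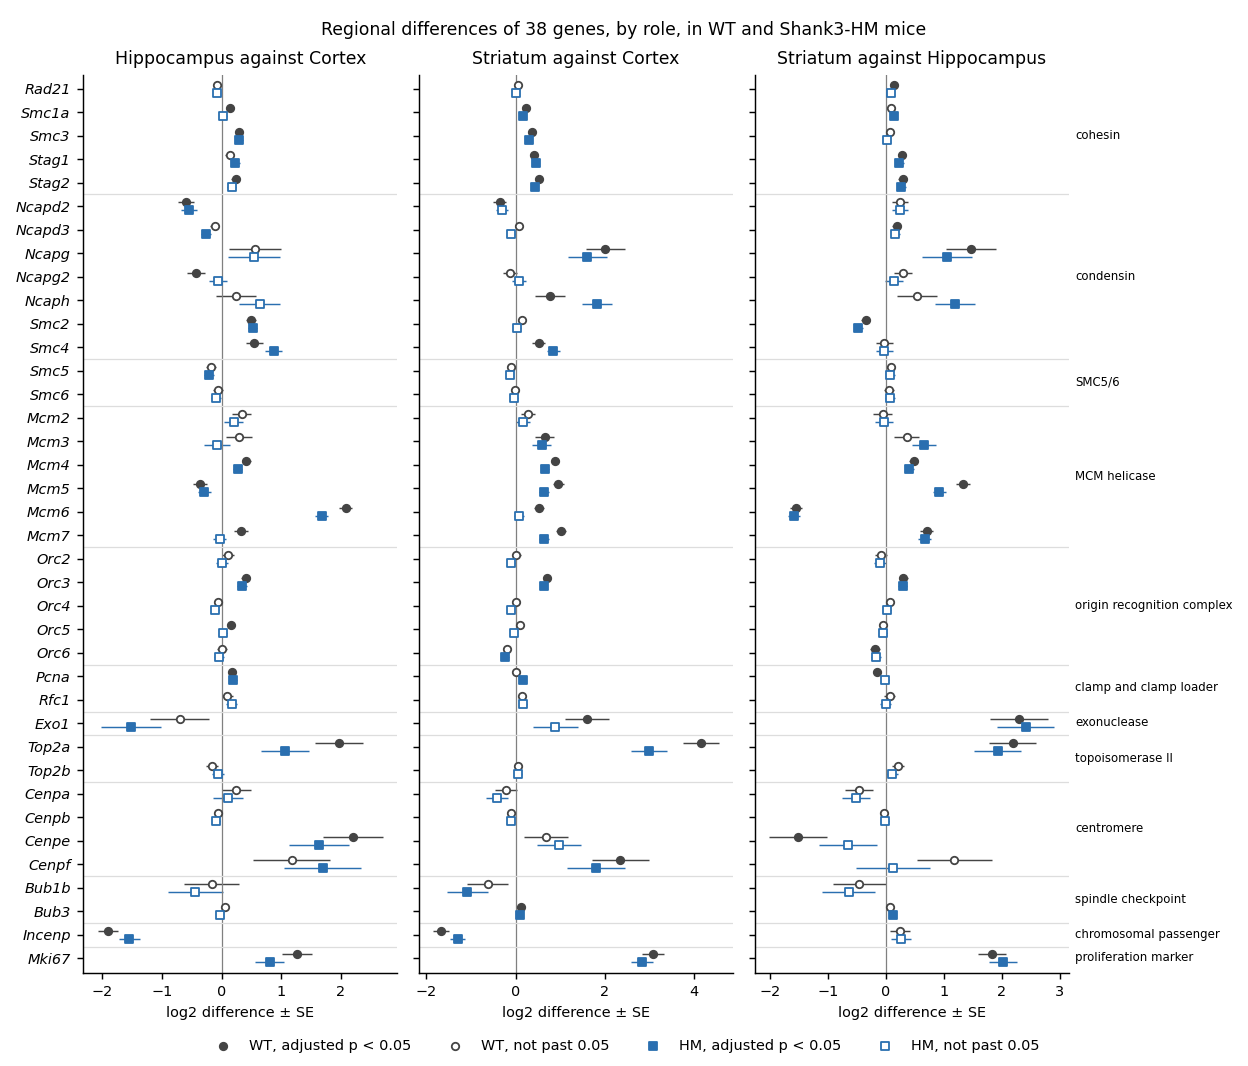
Log2 differences between regions (x axes, with SE bars) of 38 genes arranged by role (y axis), in WT (grey circles) and Shank3-HM mice (blue squares), filled where the adjusted p was under 0.05 (Exo1 and Ncapg, which reached the limit through the striatum, are drawn but not read as calls). Top2a (4.14) and Mki67 (3.09) reach furthest right for striatum against cortex, Mcm6 is high in hippocampus and Incenp low outside the cortex.

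Genes of the same pathways that are not among the 41 were counted in the same fits. Of 98 with a mean of at least 10, 21 were higher and 16 lower in WT hippocampus than in cortex (23.3% and 23.3% of all genes were), 41 higher and 13 lower in striatum than in cortex (30.0% and 29.3%), and 36 higher and 6 lower in striatum than in hippocampus (27.8% and 28.3%). Pathway genes that reached the limit only through the striatum were not set aside. The counts of genes higher in striatum may therefore be favoured by the limit, also those by pathway, and nothing is read from them. Of 25 kinetochore, spindle and cytokinesis genes, 15 were higher and 4 lower in striatum than in cortex (median 0.84, against 0.011 over all genes, of which 30.0% were higher and 29.3% lower), and of 34 genes of origin firing and the replication fork 8 were higher and 3 lower (median 0.21). Cdk1, the kinase that drives entry into mitosis, had a mean of 24.6 in striatum and 4.71 in cortex (2.44 ± 0.50), and the kinetochore scaffold Knl1 25.9 and 7.10 (2.30 ± 0.53). Both cortical means were under the limit of 10, so that both differences may be favoured by it and are given with no test. Ccne1, the cyclin of entry into S phase, had the opposite direction with 132 in striatum, 320.1 in cortex and 295 in hippocampus (-1.27 ± 0.09 and -1.15 ± 0.09), and Mcm10 was lower in striatum than in cortex (-0.93 ± 0.40, adjusted p = 0.0428). Nuf2 of the kinetochore and Anln of the contractile ring were higher in hippocampus than in cortex by 1.94 ± 0.17 and 1.29 ± 0.15. Kif23, a kinesin of cytokinesis, was lower in hippocampus than in cortex (-1.39 ± 0.30) and higher in striatum than in hippocampus (1.88 ± 0.30), and Cenpk was lower in hippocampus than in cortex (-0.97 ± 0.39, adjusted p = 0.0383). Nsmce3 of the SMC5/6 complex was lower in striatum than in hippocampus (-1.04 ± 0.08). Among genotypes, 0 of these pathway genes passed in the cortex (91 tested), hippocampus (93 tested) or Shank3-HM striatum (103 tested) by limma, with 8 and 6 in Shank3-HT and Shank3-HM cortex (2.68% and 5.49% of all genes; 6 also without Shank3-HM sample 2), 5 and 3 in hippocampus (5.26% and 4.73%) and 4 in Shank3-HM striatum (7.43%) under an unadjusted p of 0.05.

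Whether genes of dividing cells varied together from mouse to mouse was asked in the hippocampus, over 15 samples with genotype means removed. Mki67 and Top2a had a Pearson r of 0.19 (permutation p = 0.502, adjusted over the 2 relations 0.967) and a Spearman rho of 0.14 (permutation p = 0.617, adjusted 0.763), and r was 0.38 without the 2 samples farthest from the median of Mki67. For Mki67 and Dcx, a microtubule protein of migrating newborn neurons, r was -0.0071 (permutation p = 0.967, adjusted 0.967) and rho -0.086 (permutation p = 0.763, adjusted 0.763), with r at 0.070 without those 2 samples. Neither relation was detectable at this number of samples.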

How the data were processed

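RNA-seq libraries of 45 samples (3 regions, 3 genotypes, 5 samples each) were used. The authors prepared stranded mRNA libraries, quantified transcripts with Salmon against the mouse genome GRCm38 and deposited gene counts normalized with DESeq2, a signal that is no longer whole reads. The submitters' processing notes name Salmon 1.1.0, DESeq2 1.26.0 and R 3.6.2, whereas the methods name other releases of DESeq2 and R. The annotation release is not given in the sources used here. Steps of single reads were sought, and at most 32.0% of values of a sample lay within 0.05 of a whole multiple (10% by chance), so that no count test was run and depth is unknown.

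From these values, log2(value + 1) was tested with limma 3.58.1 (R 4.3.3, moderated test with intensity trend) on genes with a mean of at least 10 in the samples of the fit. Genotypes were compared within a region, in a fit of its 3 genotypes, and regions in a fit of all 9 groups. The Benjamini-Hochberg adjustment ran over all genes tested, and the threshold was 0.05. The fold changes on this scale understate those of low genes. Correlations used permutation in Python 3.11.15 (scipy 1.17.1), two-sided, and figures matplotlib 3.10.9.

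The members and gene lists were chosen with earlier results of these data known. Genes given by sample were Exo1, the 3 with the smallest unadjusted p in each of the 5 genotype comparisons tested, the 3 largest falls and rises in the Shank3-HT striatum, and up to 4 per direction in each WT region comparison. Of the other pathway genes, up to 2 per direction were named. Further genes were named after their values were seen. The labels give no source for the samples beyond region and number, so p-values measure the spread between these samples. Of 45 pairs of samples with the same genotype and number in different regions, 16 had deviations that correlated above 0.1 (range -0.10 to 0.23, median 0.067). Of 30 pairs with the same region and number in different genotypes, 4 did (range -0.12 to 0.15, median 0.034). The main fits did not pair samples by number, although regions may share mice, which was not tested. Alternatives were the pseudocount, the filter, the trend, quantile normalization, the samples in the fit, a replicate block and each sample left out.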

Additional observations from a re-analysis of the deposited data

Results flagged for a closer look

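In groups of 5 samples, 22 of 189 tests over 21 genes and 9 groups (11.6%) had a highest or lowest sample set apart from the others by Dixon's criterion. For values of a normal distribution chance alone gives about 1 in 20. The criterion was applied to normalized counts with no log, and most samples set apart were the highest. The 11.6% is therefore not read as an excess. Exo1 was set apart in cortical WT sample 4 (31.38 normalized counts), cortical Shank3-HM sample 5 (44.63), striatal Shank3-HT sample 2 (13.75) and, as the lowest, striatal Shank3-HM sample 5 (15.48). Cenpf was set apart most often, as the highest sample of its group in cortical WT sample 4 (36.73), Shank3-HT sample 1 (44.04) and Shank3-HM sample 4 (121.6), and in hippocampal WT sample 4 (78.07) and Shank3-HM sample 4 (254.5). Cenpe was highest in cortical Shank3-HM sample 4 (60.46) and striatal Shank3-HM sample 5 (100.2), and Top2a in cortical Shank3-HT sample 1 (38.55). Among the MCM genes, Mcm7 was lowest in striatal Shank3-HM sample 4 (349.2) and Mcm3 highest in striatal Shank3-HT sample 2 (160.7) and Shank3-HM sample 2 (100.6). Of the condensin genes, Smc4 was lowest in cortical WT sample 1 (150) and highest in hippocampal Shank3-HM sample 2 (345.4), Ncapg2 highest in cortical Shank3-HM sample 4 (231.1) and Ncaph in striatal Shank3-HT sample 2 (53.31). Rad21 was highest in striatal WT sample 5 (3305), and Cenpb in hippocampal Shank3-HT sample 3 (3832) and Shank3-HM sample 4 (3774).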

How the results depend on the processing

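In the 5 genotype comparisons tested, 0 of the genes passed under every alternative run, with 0 to 0 when each sample was left out. Between regions of WT mice, with Exo1 and Ncapg counted, leaving out each sample gave 15 to 19 genes past the threshold for hippocampus against cortex (18 with all samples), 18 to 20 for striatum against cortex (20) and 13 to 17 for striatum against hippocampus (17). With a mean of at least 100 as the filter, 13 passed for striatum against cortex, where fewer of the genes were tested. In Shank3-HM mice, an alternative added after seeing the data, the ranges were 13 to 19 (18), 17 to 19 (20) and 15 to 17 (16). For the Shank3-HT striatum, also added after seeing the data, 27 to 33 of the 40 genes lay below 0 with a sample left out, 30 after quantile normalization and 20 of 29 with a mean of at least 100. The difference of Cenpe there turned to -0.15 without Shank3-HT replicate 3 and was 0.37 without Shank3-HT replicate 2. Among the genes chosen for each WT region comparison, calls lost under some alternative were those of Ncapg2 and Mcm5 (hippocampus against cortex), Ncapd2 (striatum against cortex) and Orc6 (striatum against hippocampus). For Mcm5 and Orc6 these include a fit of only the groups compared (adjusted p = 0.0664 and 0.0893), and for Orc6 quantile normalization (adjusted p = 0.151). The cause was not tested.

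With the sample number as a replicate block, 0 genes passed in each of the 5 genotype comparisons, and 29 lay below 0 in the Shank3-HT striatum. With genotype and number as the replicate block, 20, 20 and 18 passed in the 3 region comparisons of WT mice and 18, 21 and 18 in those of Shank3-HM mice. As far as the labels say, these samples share only a number.

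Without counts, the precision of low genes such as Exo1 and Ncapg cannot be given beyond the spread between samples, and Bub1 and Aurkb were tested in the striatum alone.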

Other observations

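Cenpf was highest in samples of the same genotype and number in cortex and hippocampus: WT sample 4 had 36.7 and 78.1 normalized counts, Shank3-HT sample 1 had 44.0 and 114, and Shank3-HM sample 4 had 122 and 255. In the striatum these samples had 57.2, 36.9 and 47.1, within the range of their groups. Bub1b, which encodes the checkpoint kinase BubR1, was lowest of its group in Shank3-HT sample 4 in all 3 regions, at 17.8 in cortex, 16.4 in hippocampus and 23.6 in striatum. These patterns were noticed in the data and were not tested.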
